A study of Mus musculus with 16 samples.

Results

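The 8 mitotic kinesins studied here (Kif11, Kif15, Kif18b, Kif20a, Kif22, Kif23, Kif2c and Kif4), topoisomerase II alpha (Top2a) and the hyaluronan-mediated motility receptor (Hmmr) were followed in the lungs of newborn mice after ozone. The genes were found by matching the symbol, or an older synonym, of each array probe that is not a control, which gave 10 genes with 19 of 41174 probes. A signal well above background on 4 or more of the 16 arrays was required of a probe, which 17 of the 19 met, and each of the 10 genes had at least 1 such probe. All 10 genes are therefore among the 21631 tested. All animals were BALB/c pups, an inbred strain, aged 3 days. They spent 3 h in ozone (1000 ppb) or in filtered air, and the lungs were collected 6 h or 24 h later, giving 4 lungs each for ozone at 6 h, air at 6 h, ozone at 24 h and air at 24 h. Each lung came from a separate pup, drawn at random from 6-8 pups per group, and each time point had its own air-exposed littermates. A foster dam was present during exposure. RNA of the whole organ was labelled with 1 dye (Cy3) after oligo(dT) priming, so all lung cell types contribute to a value.

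Kinesins are motors that walk on microtubules or take their ends apart. The mitotic ones are made mainly in cells about to divide, where they separate the spindle poles, move and align chromosomes, and build the midzone that guides the cut between daughter cells. Top2a passes DNA strands through each other and frees sister chromatids before they part, and Hmmr is both a hyaluronan receptor and a spindle protein. The newborn lung has not yet finished forming alveoli and holds many dividing cells, so transcripts of this kind are a common readout of division there. Many of these genes are transcribed late in the cell cycle. Promoters of that class often carry a cell-cycle homology element, with the letters TTTGAA as its usual core, and CCAAT boxes, the sites that the factor NF-Y recognises.

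The promoter stretches are shown because the genes, read by separate probes, shared 1 direction at 24 h. RefSeq windows on build GRCm38.p6, from 250 bases before to 50 after an annotated transcript start, were used for 9 of the 10 genes, all but Kif20a. The 90 bases from -60 to +30 around the start are printed 5′ to 3′ on the strand of the gene, where +1 is the first transcribed base. Capitals mark TTTGAA and CCAAT on either strand, so that the reverse complements TTCAAA and ATTGG are in capitals too.
Kif11, chr19:37376322-37376411, plus strand: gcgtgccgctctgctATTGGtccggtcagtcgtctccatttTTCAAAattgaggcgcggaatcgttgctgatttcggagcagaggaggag
Kif15, chr9:122951021-122951110, plus strand: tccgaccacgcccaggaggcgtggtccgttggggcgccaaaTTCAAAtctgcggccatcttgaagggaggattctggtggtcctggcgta
Kif18b, chr11:102925095-102925184, minus strand: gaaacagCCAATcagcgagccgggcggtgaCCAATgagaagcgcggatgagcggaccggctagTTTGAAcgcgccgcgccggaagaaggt
Kif2c, chr4:117178743-117178832, minus strand: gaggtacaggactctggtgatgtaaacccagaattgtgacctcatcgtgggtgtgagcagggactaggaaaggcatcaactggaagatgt
Kif4, chrX:100626005-100626094, plus strand: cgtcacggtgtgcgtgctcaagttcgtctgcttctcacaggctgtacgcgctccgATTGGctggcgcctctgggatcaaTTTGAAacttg
Kif22, chr7:127042391-127042480, minus strand: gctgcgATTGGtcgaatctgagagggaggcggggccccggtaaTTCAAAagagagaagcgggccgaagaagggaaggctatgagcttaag
Kif23, chr9:61946770-61946859, minus strand: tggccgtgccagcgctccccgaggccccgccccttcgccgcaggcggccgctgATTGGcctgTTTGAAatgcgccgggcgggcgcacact
Top2a, chr11:99024160-99024249, minus strand: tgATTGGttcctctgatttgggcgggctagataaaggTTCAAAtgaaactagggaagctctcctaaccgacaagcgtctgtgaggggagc
Hmmr, chr11:40733408-40733497, minus strand: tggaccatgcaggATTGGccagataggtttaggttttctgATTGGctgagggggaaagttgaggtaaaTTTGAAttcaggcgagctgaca

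TTTGAA was present in the 300-base windows of 9 of 9 genes, against 17.9% of all 32817 windows of that length. In 8 of these 9 it lay within 30 bases of the start, against 2.91% of all windows. That distance was chosen after the positions were seen. The exception was Kif2c, whose copy lay at -103 to -98 and whose window sits at a transcript start inside the annotated gene (chr4:117159633-117182624). In Top2a the copy next to the start covered -23 to -18 on the opposite strand, in Kif11 and Kif15 -19 to -14, and in Kif22 -17 to -12. In Kif18b, Kif23, Hmmr and Kif4 it began after the start, at +4, +3, +9 and +20. CCAAT was found in 7 of 9 windows, all but Kif15 and Kif2c, against 37.4% of all windows, and the same 7 genes held both words, against 6.94% of all windows. At least 2 copies of CCAAT were found in 5 of 9 windows, against 11.7% of all. Top2a held 6 copies and Hmmr 5, and their whole windows are therefore printed.
Top2a, chr11:99024140-99024439, minus strand: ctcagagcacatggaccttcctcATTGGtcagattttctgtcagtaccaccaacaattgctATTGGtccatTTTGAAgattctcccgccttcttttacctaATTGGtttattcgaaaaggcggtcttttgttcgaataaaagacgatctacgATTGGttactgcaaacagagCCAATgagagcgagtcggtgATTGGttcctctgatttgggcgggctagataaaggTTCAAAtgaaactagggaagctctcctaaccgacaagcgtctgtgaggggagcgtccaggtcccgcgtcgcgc
Hmmr, chr11:40733388-40733687, minus strand: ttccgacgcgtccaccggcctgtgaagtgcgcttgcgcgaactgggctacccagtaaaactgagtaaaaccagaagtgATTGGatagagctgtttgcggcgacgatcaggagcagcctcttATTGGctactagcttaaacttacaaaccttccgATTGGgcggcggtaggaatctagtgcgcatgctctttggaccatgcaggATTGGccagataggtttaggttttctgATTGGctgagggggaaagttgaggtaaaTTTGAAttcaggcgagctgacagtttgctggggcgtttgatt

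Another 4 word sets were searched on both strands. TTCGAA was in 1 of 9 windows (Top2a), against 1.56% of all. The E2F-like words GGCGGGAA, GGCGCGAA and TTTCGCGC were in 0 of 9, against 2.87%. TATAAA and TTTAAA were each in 1 of 9 (Kif2c in both cases), against 13.6% and 13.2%. No 2 of these words overlapped in a member's window. Among 9 other mitotic kinesins TTTGAA was in 4 windows, among 20 spindle and cytokinesis partners in 14, and among 21 transport, ciliary and signalling kinesins in 2. Within 30 bases of the start it lay in 2, 8 and 1 windows of these lists. A match is a stretch of letters and no evidence of binding.

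**Figure D1:**
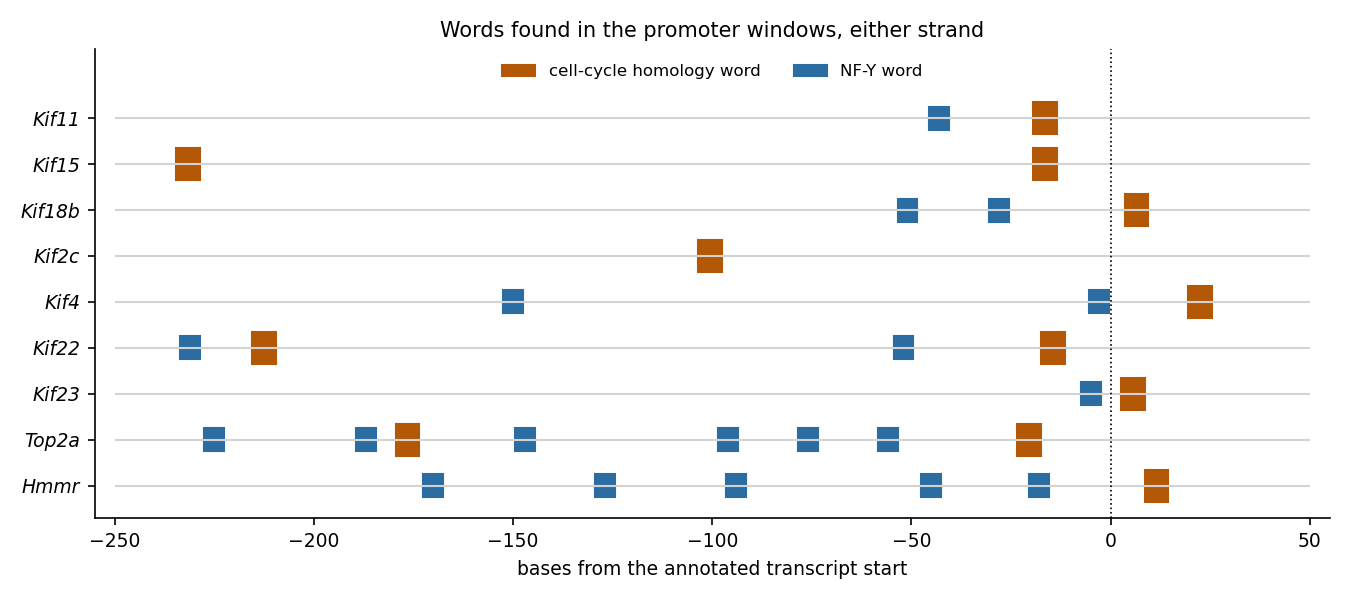
Positions of TTTGAA (cell-cycle homology word) and CCAAT (NF-Y word) in the 300-base windows of 9 genes, with bases from the annotated transcript start on the horizontal axis and the start as a dotted line. Orange blocks lie within 30 bases of the start in 8 of the 9 genes, and Top2a and Hmmr carry 6 and 5 blue blocks.

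The probes are 60-base oligos placed by the array design on build mm9. For Top2a and Kif23 a pair of probes is printed because each spans more genome than its own length (815 and 1028 bases for Top2a, 241 and 1121 for Kif23), so that the probe crosses at least 1 intron and reads spliced RNA.
Top2a probe A_51_P252157, chr11:98857244-98858058, minus strand: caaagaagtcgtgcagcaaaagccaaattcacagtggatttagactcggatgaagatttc
Top2a probe A_52_P415299, chr11:98876361-98877388, minus strand: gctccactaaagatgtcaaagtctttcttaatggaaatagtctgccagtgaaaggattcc
Kif23 probe A_51_P324287, chr9:61767492-61767732, minus strand: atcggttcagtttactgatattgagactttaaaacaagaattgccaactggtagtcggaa
Kif23 probe A_52_P27602, chr9:61767733-61768853, minus strand: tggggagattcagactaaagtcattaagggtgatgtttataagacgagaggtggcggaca

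Exon numbers were not assigned to the probes. The pair of Kif4 probes overlapped each other at chrX:97922085-97922185, as did those of Kif20a, so neither pair is made of independent oligos. Kif18b, Kif2c, Kif22 and Hmmr had 1 probe each.

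Values are log2 of the background-subtracted Cy3 signal minus the 75th percentile of the same array. A value of 0 is therefore the signal that 75% of probes do not exceed, and levels of different genes cannot be set against each other. That percentile lay between 574 and 946 units over the 16 arrays, 65.0% to 83.9% of spots were well above background and 0 spots were saturated. Correlation between arrays of 1 group was at least 0.969 (ozone at 6 h). For each gene the probe with the highest mean was used, and 21631 genes were tested together with limma. A gene was said to have changed where its Benjamini-Hochberg adjusted p was under 0.05. Errors beside log2 differences are standard errors, and errors beside means are SDs over 4 lungs.

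At 24 h after exposure, 9 of the 10 genes fell in ozone lungs, against 1.32% of all genes tested that fell. The log2 differences of the 10 ran from -1.24 for Hmmr to -0.76 for Kif22, with a median of -0.96, while the median of all genes was 0.02. In all 10 the 4 ozone lungs lay below the 4 air lungs, a separation that 4.96% of all genes showed. At that time the mean over the 10 genes was -0.90 ± 0.22 in ozone lungs and 0.10 ± 0.11 in air lungs. Whole-lung RNA was measured, so fewer dividing cells and less of these RNAs per cell cannot be told apart. Each slide held 2 ozone and 2 air lungs of 1 time. The median over the 10 genes was -0.85 on the slide of replicates 1 and 2 and -1.11 on that of replicates 3 and 4, with 10 of 10 below 0 on each, although with 2 lungs a group the limma test called 0 and 5 of them.

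**Figure D2:**
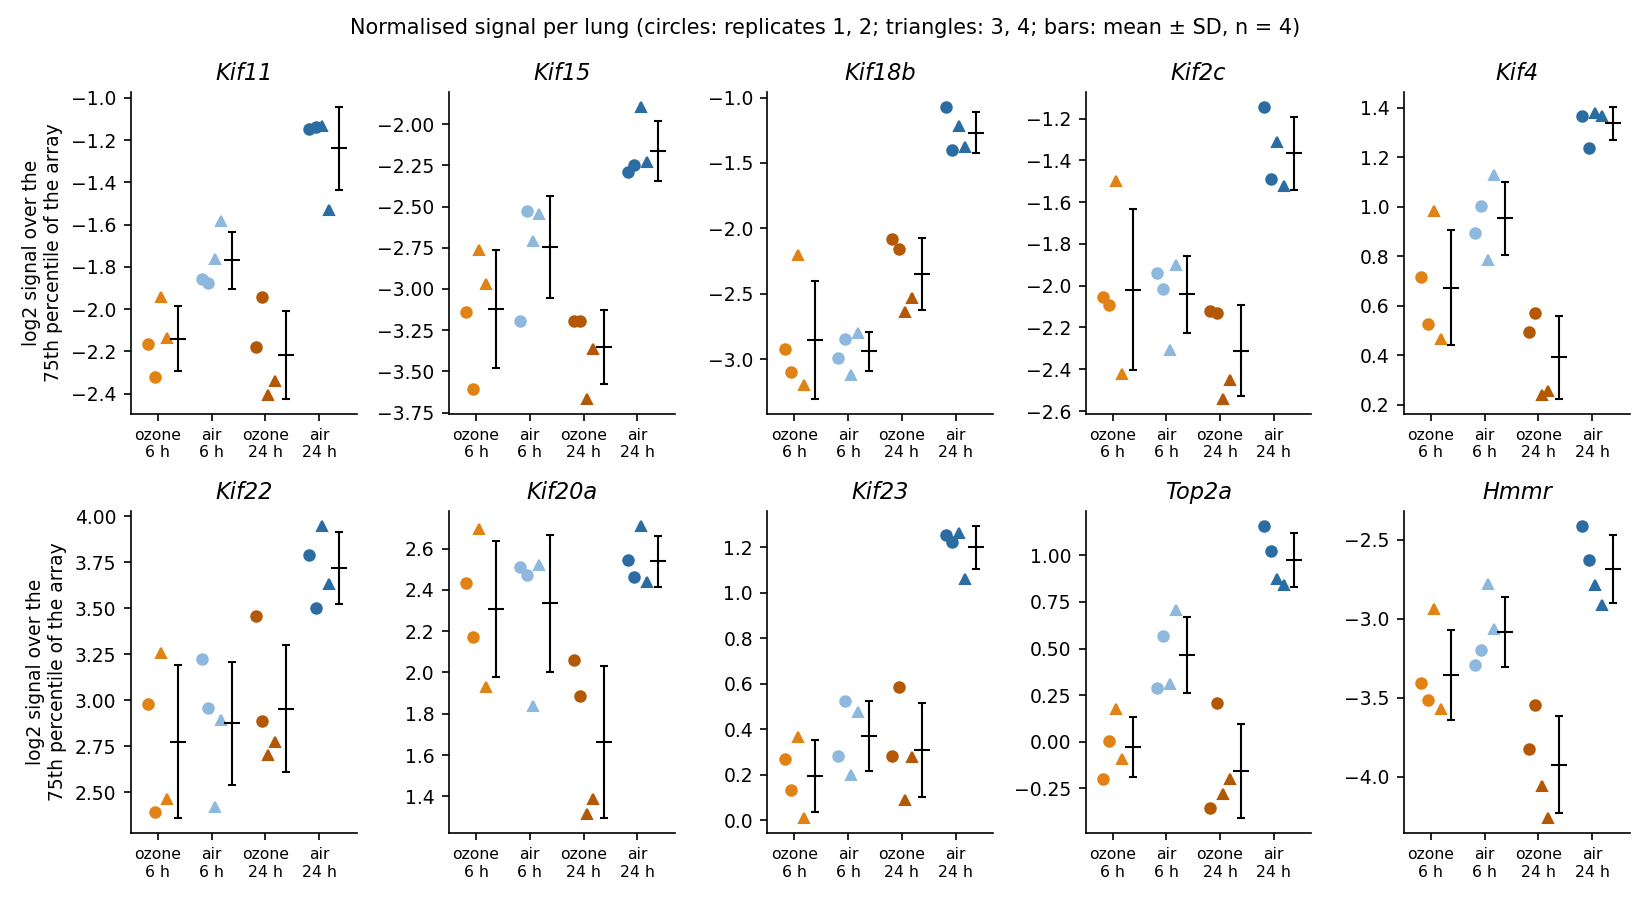
Normalised log2 signal (vertical axes, a scale of its own for each gene) of the 10 genes in the 4 groups, 1 point per lung, with mean ± SD (n = 4). Circles and triangles mark the slides of each time point. The ozone lungs lie below the air lungs at 24 h in every panel, and the air lungs at 24 h have the highest group mean in every panel.

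Among the motors that set up and hold the spindle poles, Kif11 and Kif15 both fell at 24 h. Kif11 slides antiparallel microtubules apart to make the spindle bipolar. Its level was -2.18, -1.94, -2.41 and -2.34 in the ozone lungs, against -1.15, -1.14, -1.13 and -1.53 in the air lungs. The groups did not overlap, 1 air lung stood below the other 3, and the difference was -0.98 ± 0.13 (adjusted p = 0.000446, limma), or 50.7% of the air level. With all kept Kif11 probes averaged it was -0.78 ± 0.20 and no longer passed (adjusted p = 0.0598). Kif15 helps to keep the poles apart once they have separated. It measured -3.19, -3.19, -3.67 and -3.37 in ozone lungs and -2.29, -2.25, -1.89 and -2.23 in air lungs. Every ozone lung was lower than every air lung, with a difference of -1.19 ± 0.19 (adjusted p = 0.002, limma), which left 43.8% of the air level.

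Kif18b and Kif2c act at microtubule ends, and both fell. Kif18b trims the astral microtubules. Its ozone values were -2.08, -2.15, -2.64 and -2.53, and its air values were -1.07, -1.40, -1.22 and -1.38. The 2 sets were about 1 log2 unit apart (-1.08 ± 0.19, adjusted p = 0.00387, limma). Kif2c takes microtubules apart at kinetochores and so corrects faulty attachments. In ozone lungs it measured -2.12, -2.13, -2.54 and -2.45, against -1.14, -1.49, -1.31 and -1.52 in air lungs. No ozone lung reached the air range, and the difference was -0.94 ± 0.17 (adjusted p = 0.00468, limma).

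The chromokinesins Kif4 and Kif22 bind chromosome arms. Kif4, which also limits the length of the midzone, measured 0.49, 0.57, 0.24 and 0.26 in ozone lungs and 1.37, 1.24, 1.38 and 1.37 in air lungs. The air lungs lay close together and above every ozone lung, and Kif4 fell by 0.95 ± 0.11 on the log2 scale (adjusted p = 0.000233, limma, rank 11 by p among all genes). Kif22, which pushes chromosome arms away from the poles, was the gene that did not pass. It measured 3.46, 2.89, 2.70 and 2.77 in ozone lungs, against 3.79, 3.50, 3.95 and 3.63 in air lungs. The ozone lung at 3.46 lay just under the lowest air lung, and the difference was -0.76 ± 0.20 (adjusted p = 0.0635, limma). Without that lung, replicate 1, the difference was -0.93 with an adjusted p of 0.0202, and it also passed without ozone or air replicate 3 at 6 h, lungs that enter only the shared estimate of the spread (0.0386 and 0.042). Over 14 other ways of processing its adjusted p ran from 0.00111 to 0.421 and passed in 5.

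Kif20a and Kif23 work late, in the midzone and at cytokinesis. Kif23 is the motor of centralspindlin, the complex that bundles midzone microtubules. In ozone lungs it measured 0.28, 0.59, 0.09 and 0.28, against 1.25, 1.22, 1.26 and 1.06 in air lungs. All 4 ozone lungs were below all 4 air lungs. The difference was -0.89 ± 0.11 (adjusted p = 0.000266, limma, rank 14 by p). Kif20a brings the Aurora B complex to the midzone. Its ozone values were 2.06, 1.88, 1.32 and 1.39, and its air values 2.55, 2.46, 2.71 and 2.44. The groups did not overlap, but the 2 ozone lungs of the first slide lay nearer to air than the 2 of the second. The difference was -0.88 ± 0.19 (adjusted p = 0.0178, limma). Leaving out ozone replicate 3, ozone replicate 4, air replicate 1 or air replicate 3 of 24 h ended the Kif20a call, with adjusted p between 0.0519 and 0.0717, as did the replicate block (0.0727) and eBayes without a trend (0.0529).

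Top2a gave the lowest adjusted p of the 10 genes. Its ozone values at 24 h were -0.36, 0.21, -0.28 and -0.20, and its air values were 1.16, 1.02, 0.88 and 0.84. Even the highest ozone lung was well under the lowest air lung. Top2a fell by 1.13 ± 0.13 (adjusted p = 0.000212, limma, rank 7 by p), to 45.7% of the air level. Hmmr had the largest difference of the 10. It measured -3.83, -3.55, -4.06 and -4.26 in ozone lungs and -2.41, -2.63, -2.79 and -2.92 in air lungs. The groups were separate, with a difference of -1.24 ± 0.19 (adjusted p = 0.00129, limma), which left 42.4% of the air level.

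At 6 h the same genes stood much nearer to air. Top2a was the gene of the 10 that fell, against 3.12% of all genes tested that fell. The log2 differences ran from -0.49 for Top2a to 0.09 for Kif18b, 8 of 10 were below 0 and their median was -0.23, while the median of all genes was 0.07. In 2 of the 10, Top2a and Kif11, the 4 ozone lungs lay below the 4 air lungs, as in 4.87% of all genes. At an unadjusted p under 0.05, 3 of the 10 were lower, the last of them Kif4 at rank 2850 by p among the 21631 genes. At least that many genes therefore passed this threshold, in either direction. Kif15, the next of the 10, stood at rank 5131 and did not pass. The median was -0.27 on the slide of replicates 1 and 2 with 10 of 10 below 0, and -0.19 on the slide of replicates 3 and 4 with 6 of 10 below 0.

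Top2a measured -0.20, 0.01, 0.18 and -0.09 in ozone lungs at 6 h, against 0.29, 0.57, 0.31 and 0.71 in air lungs. The groups came close but did not overlap. The difference was -0.49 ± 0.13 (adjusted p = 0.0359, limma), or 71.0% of the air level. Leaving out ozone replicate 1, 2 or 4 or air replicate 2 or 4 of 6 h ended this call, with adjusted p of 0.0542 to 0.146. So did 7 of 14 other ways of processing, with adjusted p of 0.0646 (Xist level as a covariate), 0.0678 (eBayes without a trend), 0.0734 (replicate block), 0.0935 (arrays of 6 h alone), 0.134 (probes averaged), and 0.33 and 0.137 (the slides of replicates 1 and 2 and of replicates 3 and 4 alone). Kif11 was -2.16, -2.32, -1.94 and -2.14 in ozone lungs and -1.86, -1.88, -1.76 and -1.58 in air lungs. These groups were separate as well, with the highest ozone lung just below the lowest air lung, and the difference of -0.37 ± 0.13 had an adjusted p of 0.105 (limma). It passed in 3 of 14 other ways of processing and turned to 0.06 where all Kif11 probes were averaged.

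For the other 8 genes the ozone and air lungs overlapped at 6 h. Kif15 differed by -0.38 ± 0.19, Kif4 by -0.28 ± 0.11, Hmmr by -0.27 ± 0.19 and Kif23 by -0.18 ± 0.11, with adjusted p between 0.152 and 0.414 (limma). Kif15 ran from -3.61 to -2.77 in ozone lungs and from -3.20 to -2.53 in air lungs. Kif4 ran from 0.46 to 0.98 in ozone lungs and from 0.78 to 1.13 in air lungs. Hmmr ran from -3.57 to -2.94 in ozone lungs and from -3.29 to -2.78 in air lungs. In each of these the ozone range reached lower than the air range. For Kif15 the upper ozone lungs lay among the air lungs, while for Kif4 and Hmmr only ozone replicate 3 did. Kif18b measured -2.92, -3.09, -2.20 and -3.19 in ozone lungs, against -2.99, -2.85, -3.12 and -2.80 in air lungs, so that 1 ozone lung stood above all others. Kif2c measured -2.06, -2.09, -1.50 and -2.42 in ozone lungs, against -1.94, -2.01, -2.31 and -1.90 in air lungs, with the same lung on top. Kif20a ran from 1.93 to 2.70 in ozone lungs and from 1.84 to 2.52 in air lungs, and for Kif22 and Kif23 the ranges overlapped as well. Kif22 (-0.10), Kif20a (-0.03), Kif2c (0.02) and Kif18b (0.09) lay within 1 SE of 0. In all 10 genes, ozone replicate 3 of 6 h was the highest of the 4 ozone lungs. Without it the differences of Kif18b and Kif2c turned to -0.13 and -0.15, and all 10 genes were then below 0 with a median of -0.32. Its array had a mean correlation of 0.97 with the other 3 of its group, which had 0.981 to 0.983. On it 83.9% of spots were well above background, against 65.0% to 70.8% on the other 3, and the part of this in its levels was not tested.

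**Figure D3:**
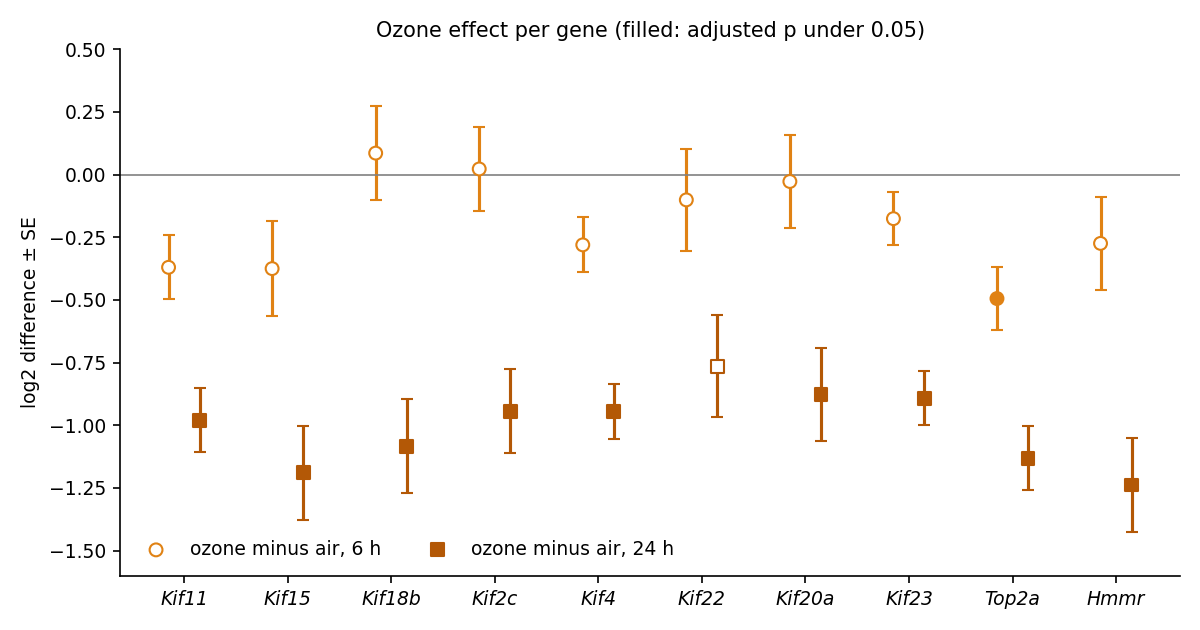
Log2 difference of ozone minus air with its SE (vertical axis) for each of the 10 genes at 6 h (circles) and at 24 h (squares), n = 4 lungs a group, with filled symbols for adjusted p under 0.05. Differences at 24 h lie between -1.24 and -0.76 and those at 6 h between -0.49 and 0.09.

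The ozone effect was more negative at 24 h than at 6 h in all 10 genes, by 0.61 (Kif11) to 1.17 (Kif18b) on the log2 scale. The test of that difference called 0 of the 10 after adjustment (limma), against 0.0647% of all genes called in either direction. At an unadjusted p under 0.05, 10 of the 10 passed, the last of them Kif22 at rank 2068 by p among the 21631 genes. At least that many genes passed without adjustment, in either direction, so the share of 0.0647% does not apply to this count. Kif23 had the lowest adjusted p, 0.0744, with a difference of effects of -0.72 ± 0.15, and Kif22 the highest, 0.347, with -0.66 ± 0.29. Without air replicate 2 of 6 h, Kif23 passed with an adjusted p of 0.0344. With normexp background correction 6 of 10 passed, and with array weights 4 of 10. Of all 21631 genes, 549 and 441 passed in these fits, in either direction. Normexp also put the median of all genes at -0.21, against -0.04 in the main fit.

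The level in air lungs differed between the time points. Of the 10 genes, 8 were higher in air lungs at 24 h than in air lungs at 6 h, against 21.4% of all genes, and the median difference was 0.56. Kif18b rose most, with values of -1.07, -1.40, -1.22 and -1.38 at 24 h, against -2.99, -2.85, -3.12 and -2.80 at 6 h. All 4 later lungs were above all 4 earlier ones (1.67 ± 0.19, adjusted p = 1.17e-06, limma). Kif22 and Kif23 followed with 0.84 ± 0.20 and 0.83 ± 0.11. Kif20a (0.20 ± 0.19, adjusted p = 0.385) and Hmmr (0.40 ± 0.19, adjusted p = 0.0854) did not pass. The time points were run on separate slides, and 49.9% of all genes differed between these air groups, so time after exposure, age of the pup and slide cannot be told apart here.

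The mean of the 10 genes was -0.76 ± 0.26 in ozone lungs at 6 h, -0.56 ± 0.13 in air lungs at 6 h, -0.90 ± 0.22 in ozone lungs at 24 h and 0.10 ± 0.11 in air lungs at 24 h. The ozone mean at 24 h lay below the ozone mean at 6 h in 7 of 10 genes and below the air mean at 6 h in 8 of 10. Hmmr had moved down most against the 6 h air mean, by -0.84, and Kif18b was 0.59 above it. Levels of the 2 time points come from separate slides and are given without a test.

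At the level of single probes, 14 of the 17 kept probes fell at 24 h, against 1.12% of all kept probes, and 17 of 17 differences were below 0. At 6 h 1 of 17 fell, the Top2a probe A_51_P252157, against 2.62% of all kept probes. Both Top2a probes fell, with -1.13 ± 0.13 for A_51_P252157 and -1.20 ± 0.22 for A_52_P415299, a probe that lies nearer to the 5′ end of the gene. Both Kif23 probes fell as well, with -0.89 ± 0.11 for A_52_P27602 and -0.91 ± 0.11 for A_51_P324287. The Kif15 probes A_52_P227391 and A_51_P127412 gave -1.19 ± 0.19 and -1.27 ± 0.29, although the second was well above background on 10 of 16 arrays. The overlapping probes of Kif4 gave -0.95 and -0.97, and those of Kif20a -0.88 and -0.90.

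Kif11 was the gene with several kept probes of which not all passed at 24 h, although all of them lay below 0. The probe used for it, A_51_P481398, was well above background on 16 of 16 arrays. A_52_P177802, on 12 of 16 arrays, gave -0.52 ± 0.36 at 24 h, and A_52_P646059, on 9 of 16, gave -0.86 ± 0.47, and neither passed. At 6 h A_52_P646059 gave 1.01 ± 0.47, the one large positive value among the 17 probes, with an adjusted p of 0.242 (limma over all kept probes). Its 6 h levels ran from -6.13 to -3.27 in ozone lungs and from -6.13 to -5.11 in air lungs. The dim probes are near background, where the SE is wide. The 2 probes left out were A_52_P91336 of Kif15, well above background on 0 of 16 arrays, and A_52_P156502 of Top2a, on 2 of 16, both air lungs at 24 h.

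**Figure D4:**
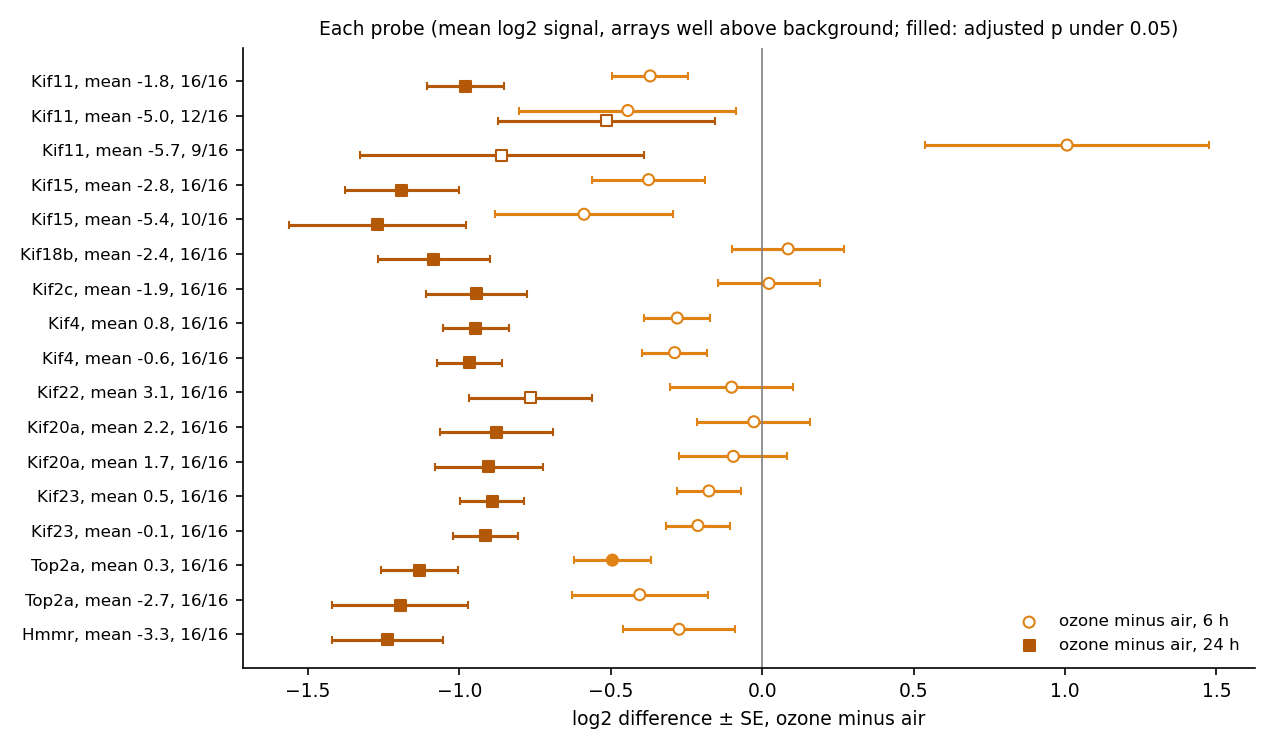
Log2 difference of ozone minus air with its SE (horizontal axis) for the 17 kept probes at 6 h (circles) and 24 h (squares), with each probe's gene, mean log2 signal and number of arrays well above background at the left. All 17 squares lie left of 0, and the open squares are the 2 dim Kif11 probes and Kif22.

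Over the 16 arrays each gene followed the others. Pearson's r with the mean of the other 9 ran from 0.713 (Kif20a) to 0.948 (Kif4), a description of arrays that share the group differences. After removal of group means, r over the 45 pairs of genes had a median of 0.586 and ran from -0.003 to 0.949, so single lungs high in 1 of these genes were mostly high in others. Outside the 10, the 6 genes with the highest r to their mean were Ckap2l (0.972), Ube2c (0.96), Cdc25c (0.96), Tacc3 (0.959), Sapcd2 (0.956) and Ccna2 (0.956), over the same 16 arrays.

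Related genes were counted beside the 10. Of 8 other mitotic kinesins, 6 fell at 24 h with a list median of -0.81, and those with the smallest p were Kif18a (-0.93 ± 0.15), a relative of Kif18b that damps chromosome movements, Kif20b (-0.89 ± 0.15) and Kifc5b (-0.89 ± 0.16). Kifc5b and Kifc1 are near copies, and which of them a probe reads is uncertain. Kif24 (0.20) and Kif2a (-0.07) did not pass, and Kif2b was not kept. At 6 h 0 of 8 passed with limma, and 2 did at an unadjusted p under 0.05. By contrast, of 27 transport, ciliary and signalling kinesins and their light chains 0 fell and 0 rose at 24 h (limma). At an unadjusted p under 0.05, 1 of the 27 passed, and the median was -0.02. The count of all genes at that unadjusted threshold at 24 h is not given. At 6 h 2 of these 27 rose, against 1.36% of all genes tested that rose, namely the light chains Klc4 (0.32 ± 0.07) and Klc3 (0.38 ± 0.08).

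Top2b, the topoisomerase II that is also made in cells that do not divide, differed by 0.08 ± 0.09 at 24 h (adjusted p = 0.816, limma). Among 7 other topoisomerases and partners 1 fell at both times, Topbp1, which binds stalled replication forks (-0.33 ± 0.07 at 6 h and -0.55 ± 0.07 at 24 h). Of 13 condensin and cohesin subunits 6 fell at 24 h, all of them subunits of condensin, with Ncapg2 (-0.89 ± 0.10), Ncapd2 (-0.86 ± 0.10) and Ncaph (-0.68 ± 0.12) at the smallest p. Ncapg2 was the 1 of 13 that fell at 6 h (-0.63 ± 0.10).

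Of 25 spindle and cytokinesis partners, 3 fell at 6 h and 23 at 24 h, with list medians of -0.20 and -0.90. The smallest p at 24 h belonged to Ckap2l (-0.92 ± 0.12), Nuf2 (-0.91 ± 0.11), a kinetochore subunit, and Ckap2 (-0.90 ± 0.12). The 2 of 25 that did not pass were Ckap5 (-0.61 ± 0.26) and Numa1 (0.05 ± 0.11). At 6 h Nuf2 (-0.55 ± 0.11), Spc25 (-0.63 ± 0.13) and Kntc1 (-0.67 ± 0.15), all of the kinetochore, were the 3 that fell. Of 18 cell cycle transcription factors, 4 fell at 6 h, led by E2f1 (-0.71 ± 0.09), Tfdp1 (-0.38 ± 0.07) and Rbl1 (-0.40 ± 0.09), which govern genes of DNA synthesis. At 24 h 8 of 18 fell, with E2f8 (-0.82 ± 0.12), Foxm1 (-0.93 ± 0.15), an activator of late cell cycle genes, and Rbl1 (-0.49 ± 0.09) at the smallest p.

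**Figure D5:**
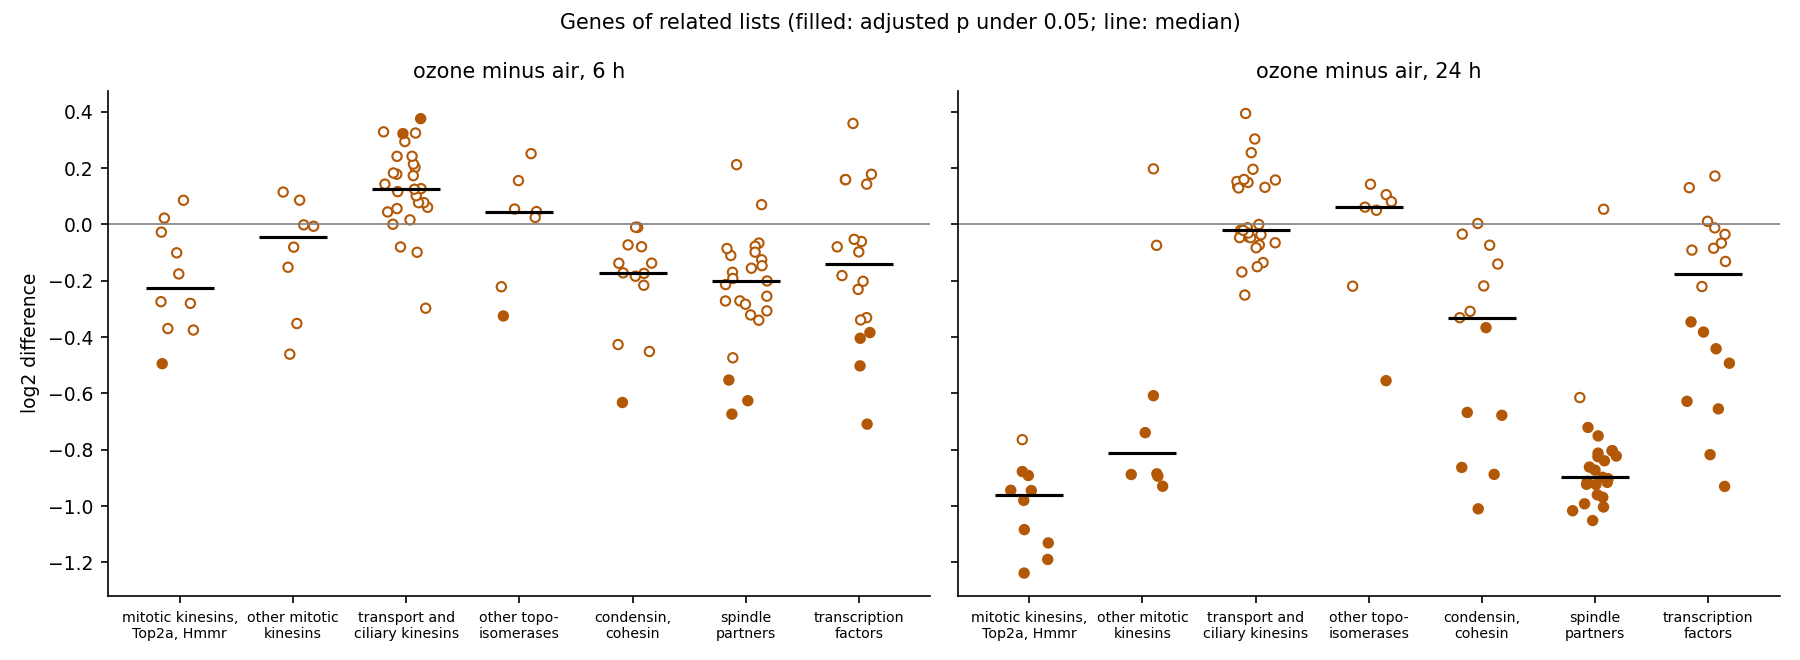
Log2 difference of ozone minus air (vertical axis) of every tested gene in the 10-gene set and 6 related lists, at 6 h (left) and 24 h (right), with the list median as a bar and filled points for adjusted p under 0.05. At 24 h the 27 transport and ciliary kinesins lie around 0 (median -0.02), while 23 of 25 spindle partners are filled.

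Markers of other cells moved with the 24 h result in part. Of 7 markers of dividing cells of any type, 4 fell at 6 h, led by Pcna (-0.80 ± 0.09), Mcm5 (-0.75 ± 0.12) and Mcm2 (-0.67 ± 0.11), which serve DNA replication. All 7 fell at 24 h, with Cdk1 (-0.97 ± 0.11), Ccnb1 (-0.93 ± 0.12) and Mki67 (-0.82 ± 0.12) at the smallest p. Erythroid precursors also divide. At 24 h 2 of their 14 markers fell, Klf1 (-0.99 ± 0.23) and Kel (-0.75 ± 0.19), and the list median was -0.56. The summed linear signal of the 14, in multiples of the 75th percentile, ran from 13.7 to 25.2 in ozone lungs and from 12.6 to 25.4 in air lungs. Alas2, the brightest of the 14 (0.42 ± 0.31), weighs most in that sum. The mean log2 of the 14 ran from -2.41 to -1.77 in ozone lungs and from -1.97 to -1.13 in air lungs. Of these markers, 14 of 14 were well above background on all arrays. Their part in the fall of the mitotic genes was not tested.

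Lymphoid markers moved unevenly at 24 h. Of 12 B cell markers 2 rose, against 0.684% of all genes, namely Vpreb3 (0.94 ± 0.09) and Cd79b (0.70 ± 0.13), with summed signals of 6.26 to 8.35 in ozone lungs against 4.37 to 5.2 in air lungs. Of 11 tested T cell markers 3 rose, Cd8b1 (0.95 ± 0.20), Lck (0.51 ± 0.13) and Cd5 (0.49 ± 0.12), with 3.22 to 4.52 in ozone lungs against 2.79 to 3.14 in air lungs, while Rag2 was well above background on 0 arrays. The other tested B and T cell markers did not pass (limma), the lowest being Pax5 (-0.56 ± 0.68) and Cd3e (-0.33 ± 0.26), and the list medians were 0.19 for B cells and 0.38 for T cells. Of 8 epithelial, 6 endothelial and 5 mesenchymal lung markers 0 passed at 24 h (limma), and 2, 0 and 0 did at an unadjusted p under 0.05. At 6 h Eln was the one of these 19 that passed (0.63 ± 0.15). The oesophagus list, for tissue next to the lung, had 0 of 6 past the threshold at either time. At an unadjusted p under 0.05, 4 passed at 6 h and 1 at 24 h. The share of all genes at that unadjusted threshold is not given. The list median was 0.88 at 6 h, against 0.07 for all genes, and 0.12 at 24 h. At 6 h its summed signal had a median of 1.42 in ozone lungs (0.91 to 1.75) and 0.68 in air lungs (0.58 to 1.64). The list thus leaned higher in ozone lungs at 6 h, with overlapping ranges. None of these shifts was tested as a source of the changes in the 10 genes.

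The sexes were not balanced. By the level of Xist, an RNA made in females, 2 of 4 ozone lungs and 1 of 4 air lungs at 6 h, and 3 of 4 ozone lungs and 1 of 4 air lungs at 24 h, lay below the 75th percentile of the array. With the Xist level as a covariate, 10 of 10 genes fell at 24 h, with a median of -0.97, and 0 of 10 at 6 h, with a median of -0.22.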

How the data were processed

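Spot intensity in the deposited scanner files is linear, and the files come from Agilent Feature Extraction 10.7.1.1, with background subtracted and no scaling between arrays, per the file headers. Other values, the deposited flags, mark spots well above background. The authors' deposited table of log2 values, normalised within each time point, served only as an alternative. Probe positions are on mm9, and promoter windows and gene positions on GRCm38.p6.

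Here spots of a probe were averaged, the log2 of the processed signal was taken, and the 75th percentile of its array was subtracted. Of 41174 probes, 32343 well above background on at least 4 arrays were kept, and 157 lacked a value on some array. The brightest probe of each of 21631 genes was fitted with limma 3.58.1 in R 4.3.3 (4 group means, eBayes with trend, Benjamini-Hochberg over all genes, two-sided). In simulated data with 21631 genes, 46% of 1.5-fold and 73% of 2-fold changes were recovered at 6 h, and 54% and 69% at 24 h. Of the calls, 4.03% and 4.65% were false. These shares hold for the simulated spread only. The number of arrays limits the precision.

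The 10 genes, the related lists, the promoter words and the tests were chosen with earlier results of these data known. Named from each list were up to 3 genes of smallest p per contrast, plus the 6 genes most like the mean, and any other name was chosen after its value was seen. Alternatives changed the scaling, filters, probe rule, blocks, covariates or weights, or left out an array.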

Additional observations from a re-analysis of the deposited data

Results flagged for a closer look

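In 4 of 40 sets of 4 lungs, 1 lung stood far from the other 3 by Dixon's test, and chance flags about 1 in 20 such sets. Kif11 in air replicate 4 at 24 h was -1.53, with its nearest neighbour at -1.15. Kif15 in air replicate 3 at 24 h was -1.89, with the nearest at -2.23. Kif4 in air replicate 2 at 24 h was 1.24, with the nearest at 1.37. Kif20a in air replicate 3 at 6 h was 1.84, with the nearest at 2.47. No lung was set apart by this test in more than 1 gene. Ozone replicate 3 of 6 h, the highest ozone lung of that time in all 10 genes, was not among them. Kif11, Kif15 and Kif4 stayed called at 24 h without any single lung.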

How the results depend on the processing

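At 24 h the 10 differences were below 0 in every fit run, and 9 genes were called. The count was 8 to 10 in all alternatives but those of 1 slide, which called 0 (replicates 1 and 2) and 5 (replicates 3 and 4). Leaving out single arrays gave 8 to 10. The fits of 1 slide called 0 and 121 of all genes, in the same order. For single probes (14 called) these slides gave 0 and 5, and leaving out arrays 11 to 15. At 6 h, where 1 was called, the count was 2 with quantile normalisation or the authors' deposited table and 3 with array weights. It was 0 with the mean of a gene's probes, on either slide and on the arrays of that time alone. It was also 0 with the replicate block, with Xist or without a trend. Leaving out arrays gave 0 to 1. Over all genes, 1047, 1180 and 1813 were called with quantile normalisation, the deposited table and array weights. The settings that called 0 members called 782, 0 (replicates 1 and 2), 84 (replicates 3 and 4), 100, 247, 558 and 546 genes, in that order. For the difference between times, where 0 passed, normexp gave 6, array weights 4 and leaving out arrays 0 to 1. Over all genes normexp gave 549 and array weights 441 for that difference. For air lungs at 24 h against 6 h, where 8 passed, the count was 6 to 9, and 7 to 9 without single arrays.

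At 6 h some signs of genes that did not pass turned. Hmmr was 0.0562 with normexp. Kif18b, Kif20a and Kif2c were -0.0354, 0.011 and -0.034 with quantile normalisation, and -0.0356, 0.00855 and -0.0336 in the authors' deposited table. With the mean of its probes Kif11 was 0.0643, and its air difference between times, a called value, turned to -0.102. On the slide of replicates 1 and 2 Kif18b and Kif2c were -0.0908 and -0.098, and on that of replicates 3 and 4 Kif20a and Kif22 were 0.135 and 0.203. Kif2c was -0.00229 with Xist and -0.21 with array weights, which put Kif18b at -0.186. Without single arrays Kif18b ran from -0.132 to 0.20, Kif2c from -0.151 to 0.158, Kif20a from -0.193 to 0.0985 and Kif22 from -0.262 to 0.0258. The causes were not tested.

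The replicate numbers were not taken to pair lungs. Deviations of same-numbered lungs correlated at 0.05 to 0.14 at 6 h and at -0.01 to 0.20 at 24 h, which does not exclude pairing. At 24 h, lungs of different numbers on 1 slide reached 0.31 (ozone 2, air 1) and 0.43 (ozone 4, air 3). Across slides -0.36 (ozone 2, air 3) and -0.37 (ozone 4, air 1) were found. These are the highest and lowest values at 24 h. Ozone 4 and air 4, also on 1 slide, gave -0.01. Each group was centred on its own mean, so positive values within a slide bring negative ones across slides. Some lungs of 1 slide may therefore share deviations, which was not tested. The main fit left out the slide, and with the slide as a block 9 of 10 genes fell at 24 h and 1 at 6 h. With the replicate block 8 of 10 genes and 12 probes were called at 24 h (Kif20a adjusted p = 0.0727, limma). Over all genes the slide block called 418 at 24 h and 876 at 6 h, and the replicate block 261 at 24 h.

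Over all genes, 970 were called at 6 h (0 to 1813 in alternatives, 196 to 1690 without single arrays), 434 at 24 h (0 to 1738, 263 to 530), 14 for the difference (0 to 549, 0 to 263) and 10788 for air (8765 to 12911). Normexp moved the median of all genes to -0.13 at 24 h, 0.14 at 6 h and -0.21 for the difference.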
